A study of Mus musculus with 2 samples.

Results

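The miRNAs described here are the products of the paralogous miR-232724 clusters, measured in RNA captured by a probe for Stat3 mRNA or by a control probe from RAW264.7 cells, a mouse macrophage line. They were chosen by name, as the rows mmu-miR-23a, mmu-miR-23b, mmu-miR-27a, mmu-miR-27b and mmu-miR-24 of the authors' deposited table, which makes 5 of its 376 miRNA assays. The rule uses no measured value. Per the labels, cells received a probe for 24 hours, captured RNA was taken up on streptavidin beads and extracted with TRIzol, and miRNAs were read by SYBR green PCR on Exiqon panels. There was 1 pull-down for each probe, control and Stat3, both from the same cell line with no other treatment named, and each was read on 1 plate of 384 wells. The comparison addresses which miRNAs are associated with Stat3 mRNA. With 1 pull-down per probe, no difference between the probes has a replicate check, and no test between them is given.

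The miR-232724 genes lie one after another within each of their separate loci, and each locus yields a single primary transcript that is cut into several hairpins. A miRNA guides an Argonaute protein to messages that pair mainly with its seed, the bases 2 to 8 of the mature strand, and lowers their translation and stability. The Mir23a cluster is known for favouring myeloid over B-lymphoid development. miR-24 is known for restraining cell cycle genes, miR-27 for acting on lipid and adipocyte genes, and miR-23 for acting on glutaminase.

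The mature sequences are shown because the members fall into seed groups that the plate values can be read against. They come from RefSeq (build GRCm38.p6), the seed is in capitals, and the unstarred assay names were taken as the 3p arms.
miR-23a-3p: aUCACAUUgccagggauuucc
miR-27a-3p: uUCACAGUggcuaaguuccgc
miR-27b-3p: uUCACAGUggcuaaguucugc
miR-24-3p: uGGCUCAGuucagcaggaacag
miR-23b is named only. miR-27a-3p and miR-27b-3p share their seed and 20 of 21 bases. Their 1 difference is C19U, counted from 1 at the 5′ end of miR-27a-3p, so that these assays had to tell apart strands that differ by a single base near the 3′ end. The seeds of miR-23a-3p and miR-27a-3p differ at 1 of their positions, U7G, while the miR-24-3p seed differs from that of either at all 7 positions.

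The hairpins show which products the loci share. In them the mature strand is in capitals wherever it is printed above.
Mir23a: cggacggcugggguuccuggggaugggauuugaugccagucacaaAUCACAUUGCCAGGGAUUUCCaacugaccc
Mir27a: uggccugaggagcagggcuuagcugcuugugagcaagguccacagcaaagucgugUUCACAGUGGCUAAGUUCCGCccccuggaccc
Mir24-2: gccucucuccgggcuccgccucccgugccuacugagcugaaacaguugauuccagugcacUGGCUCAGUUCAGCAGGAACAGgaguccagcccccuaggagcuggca
Mir23b: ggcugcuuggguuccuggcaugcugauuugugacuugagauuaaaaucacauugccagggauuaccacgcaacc
Mir27b: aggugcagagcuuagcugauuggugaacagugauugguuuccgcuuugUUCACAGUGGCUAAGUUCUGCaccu
Mir24-1: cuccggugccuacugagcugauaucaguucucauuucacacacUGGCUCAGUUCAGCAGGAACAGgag
In GRCm38.p6, all 6 hairpins lie on the plus strand. Mir23a (chr8:84208518-84208592), Mir27a (chr8:84208672-84208758) and Mir24-2 (chr8:84208815-84208921) span 404 bases between the genes Nanos3 and Zswim4. Mir23b (chr13:63300484-63300557), Mir27b (chr13:63300712-63300784) and Mir24-1 (chr13:63301208-63301275) span 792 bases inside the span of Aopep, a protein-coding gene. The hairpins of the Mir23b cluster are spaced more widely, with 154 and 423 bases between neighbours against 79 and 56 in the Mir23a cluster. Mir24-1 and Mir24-2 differ in length and loop but hold the same mature miR-24-3p, so the miR-24 assay reads both loci at once, whereas the lettered assays are each named for the product of 1 locus.

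Each plate well carries a raw threshold cycle (Ct), the PCR cycle at which the signal crosses a fixed threshold. For a given assay a lower Ct stands for more template, and each cycle is a doubling where amplification is complete. The ratio of Stat3 probe over control probe is on the scale of the authors' deposited table, which adds 0.7 cycles to each Ct difference. The plates name no miRNA, and names were tied to wells where this arithmetic returned the deposited value. Each of the 5 members matched exactly 1 well within 0.0006, and for the member with the closest competitor, miR-23a, the next well was off by 0.00795 in the ratio. The wells of miR-23a (G22), miR-23b (E18), miR-27a (M20), miR-27b (G24) and miR-24 (O11) carried 0 instrument warnings on either plate.

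All 5 miRNAs gave a Ct well below the limit of 35 in both pull-downs, and each had a lower Ct, thus more signal, with the Stat3 probe. The Ct of miR-23a was 28.38 in the control pull-down and 26.86 in the Stat3 pull-down. That of miR-23b went from 28.51 to 26.75. These Ct values lay within 0.13 cycles of each other on either plate. The miR-27a well read 30.29 in the control and 28.26 in the Stat3 pull-down, and the miR-27b well 30.55 and 27.92. miR-24 had the lowest Ct of the 5 on each plate, 27.60 and 25.88. The Ct values with the control probe, from 27.60 to 30.55, overlapped those from 25.88 to 28.26 on the Stat3 plate, but within each assay the direction was the same.

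**Figure D1:**
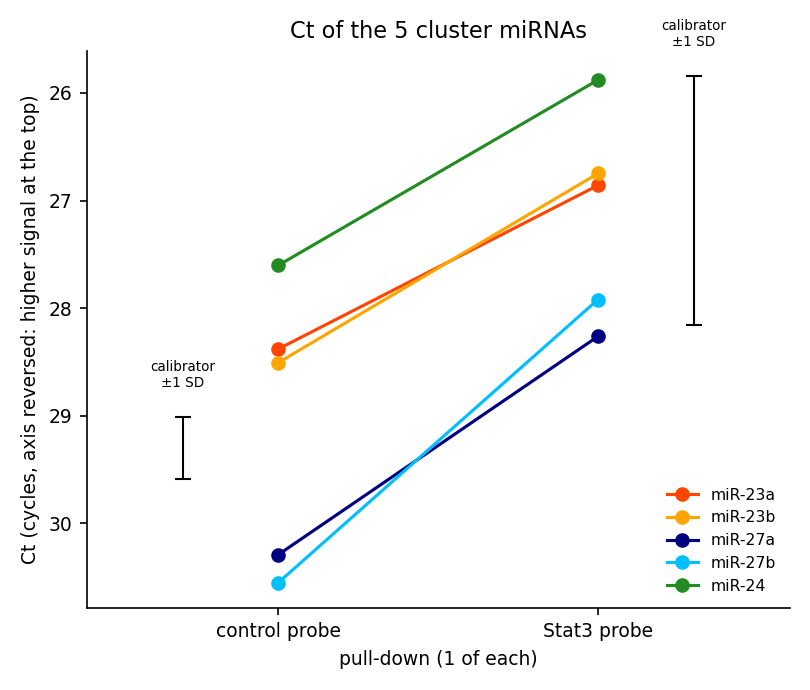
Ct in cycles (vertical axis, reversed so that more signal is at the top) of the 5 cluster miRNAs in the control and Stat3 pull-downs, 1 point per plate joined by a line per miRNA, with bars of ±1 SD of the 3 UniSp3 calibrator wells of each plate (0.29 and 1.16 cycles) drawn at arbitrary heights. Every line goes up towards the Stat3 probe, miR-24 lies at the top on both plates, and the lines of each a and b pair cross.

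As ratios on the deposited scale, miR-27b was 10.1-fold higher with the Stat3 probe, miR-27a 6.63-fold, miR-23b 5.50-fold, miR-24 5.36-fold and miR-23a 4.66-fold. The order put both miR-27 forms first. The only error measured on these plates is that of UniSp3, a calibrator template present in 3 wells of each plate. UniSp3 read between 21.18 and 23.67 cycles, earlier than any member, so the spread at the members' Ct was not measured. Its control minus Stat3 difference was -0.89 ± 0.97 cycles (SD, n = 3 wells), and it covers the PCR well but not the pull-down. The SD rests largely on 1 calibrator well in an even plate row (B3), at -1.91 cycles. The other 2 wells, in odd rows as the members are, gave -0.37 ± 0.55 cycles (SD, n = 2 wells). The 5 log2 ratios ranged over 1.11, from 2.22 to 3.33, with an SD among members of 0.43. The calibrator differences ranged over 1.93 cycles in all 3 wells and over 0.78 cycles in the 2 odd-row wells. A range widens with the number of values, so these ranges do not compare with that of 5 members. The members' SD of 0.43 is below both calibrator SDs, which rest on few wells.

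Read against the other miRNAs, this shift was close to that of the plates as a whole. All 5 members were at least 2-fold higher, and so were 73.0% of the 100 miRNA assays measured below 35 in both pull-downs. All 5 were also at least 4-fold higher, against 53.0% of the 100. All 5 members lie in odd plate rows (A, C, E to O), where ratios were higher than in even ones (B, D, F to P), and there the shares were 82.4% and 60.8% of 74 assays. The members' median was 5.50-fold, that of all 100 was 4.22-fold and that of the 74 was 5.01-fold. By ratio the members ranked 13 (miR-27b), 28 (miR-27a), 36 (miR-23b), 38 (miR-24) and 45 (miR-23a) of 100, and miR-27b alone lay above the upper quartile of 6.80-fold. A count of 5 from such a background is no result about these miRNAs in particular.

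**Figure D2:**
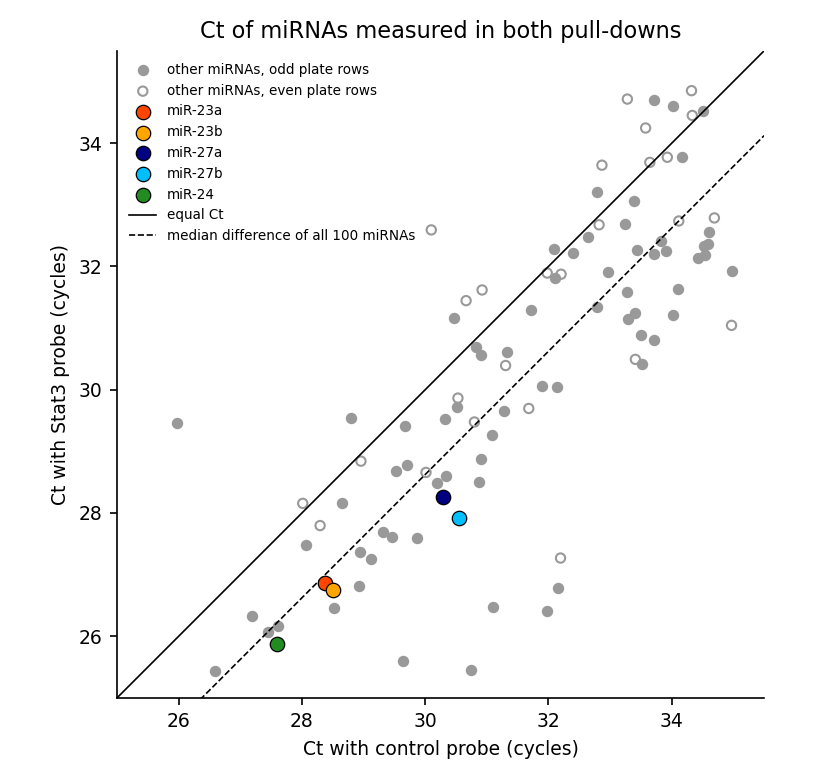
Ct with the Stat3 probe against Ct with the control probe, in cycles, for the 100 miRNA assays measured in both pull-downs, with filled grey points for odd plate rows, open points for even ones, a solid line of equal Ct and a dashed line at the median difference. The 5 cluster miRNAs lie below the solid line and along the dashed one, with miR-27b farthest from it.

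miR-24 and the miR-23 forms ranked higher by signal than by ratio, and miR-27b ranked lower. By Ct with the control probe, miR-24 ranked 5, miR-23a 10, miR-23b 11, miR-27a 29 and miR-27b 35 of 100, counted from the lowest Ct. With the Stat3 probe the ranks were 4, 14, 11, 26 and 23. miR-23a moved from ahead of miR-23b to behind it, and miR-27a likewise stood behind miR-27b. These ranks are of Ct, and since assays can differ in efficiency they are not an order of abundance. The control Ct values lay between 4.45 cycles (miR-27b) and 7.40 cycles (miR-24) below the limit of 35, so no member's ratio is a bound set by that limit.

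On both plates the Ct values followed one order of groups, miR-24 below the miR-23 pair and the miR-23 pair below the miR-27 pair. With the control probe, miR-24 lay 0.78 cycles below miR-23a, and miR-23b lay 1.79 cycles below miR-27a. Both gaps exceed the calibrator SD on that plate, 0.29 cycles over 3 wells and 0.22 cycles over the 2 odd-row wells. The gaps within the pairs were 0.13 cycles (miR-23) and 0.26 cycles (miR-27), and the latter exceeds the odd-row SD only. With the Stat3 probe the corresponding gaps were 0.87 cycles from miR-24 to miR-23b and 1.06 cycles from miR-23a to miR-27b. Both lie below the SD of 1.16 cycles over 3 wells and above that of 0.33 cycles over the 2 odd-row wells. The gap within the miR-23 pair, 0.11 cycles, lies below either SD, and that within the miR-27 pair, 0.343 cycles, is just above the odd-row SD. Whether the groups are separated beyond the calibrator spread on the Stat3 plate thus depends on the even-row well. All these SDs are of single wells, and a gap between 2 wells spreads more. Neither gap within the miR-27 pair is thus shown to exceed the error.

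The assays of the paralogous loci gave neighbouring Ct values, which do not compare amounts, since the efficiency of each assay was not measured. For miR-23, the b minus a difference in Ct was 0.13 cycles for the control and -0.11 cycles for the Stat3 pull-down. For miR-27 it was 0.26 and -0.34 cycles. In either family the b form was thus the later of the pair with the control probe and the earlier with the Stat3 probe. The ratio of miR-23b exceeded that of miR-23a by 0.24 on the log2 scale (1.18-fold), and the ratio of miR-27b exceeded that of miR-27a by 0.60 (1.52-fold). Both differences are smaller than the calibrator SD of 0.97 cycles over 3 wells. That of miR-27, 0.60, is little above the SD of 0.55 cycles over the 2 odd-row wells. These SDs are of single calibrator wells, and a difference between 2 assays spreads more. The miR-27 difference is thus not shown to exceed the error. With the wells read against their own plate rows the difference of miR-27 turns, to -0.73. That of miR-23 widens on this row scale from 0.24 to 1.01, above the 3-well SD of 0.97. Neither difference is thus stable across scales. Whether the miR-27a assay also reads miR-27b, from which it differs by C19U, was not tested. The Mir23b hairpin likewise holds the miR-23a-3p sequence but for a single base near its 3′ end. Cross-reading within the miR-23 pair was not tested either.

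Within each cluster the miR-27 form had the highest ratio, while the order of miR-23 and miR-24 was not the same in both. In the Mir23a cluster the log2 ratio of miR-27a exceeded that of miR-23a by 0.51 and that of miR-24 by 0.31. In the Mir23b cluster miR-27b exceeded miR-23b by 0.87 and miR-24 by 0.91. The miR-23 forms lay near miR-24, with differences of -0.20 for miR-23a and 0.04 for miR-23b. Each of these 6 differences is below the calibrator SD of 0.97 cycles, while 0.87 and 0.91 exceed the odd-row SD of 0.55 cycles. Both are SDs of single wells, and a difference between assays spreads more. Against the wells' own plate rows, miR-27 exceeded miR-23 by 2.32 in the Mir23a cluster and by 0.58 in the Mir23b cluster, so the cluster with the larger difference changes with the scale. miR-24 comes from both loci and cannot be assigned to either.

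The lettered pairs can be set beside other miRNAs that share a number and arm and differ by letter. Such families with at least 2 letters measured in both pull-downs gave 40 other pairs from 9 families, 28 of them within let-7, so the pairs share assays. The let-7 pairs include those of let-7i, whose well carried an instrument warning on both plates. Their median difference was 1.59 cycles with the control probe, 1.77 cycles with the Stat3 probe and 0.98 in log2 ratio. Over all 42 pairs counted from the smallest difference, miR-23a and miR-23b ranked 2 by control Ct, 1 by Stat3 Ct and 6 by log2 ratio, and miR-27a and miR-27b ranked 8, 3 and 18. In 6 other families with exactly 2 letters measured (miR-15, miR-26, miR-99, miR-101, miR-125-5p and miR-146), the median difference in log2 ratio was 1.95, and 5 of the 6 exceeded the single-well calibrator SD, over 3 wells or over the odd-row wells. The largest, 5.02, was that of miR-15a and miR-15b. The miR-101 pair, at 1.20, has its assays in odd and even rows, unlike the miR-23 and miR-27 pairs, and it also exchanged order. An exchange of order between plates, as in the miR-23 and miR-27 pairs, occurred in 10 of the 40 other pairs, in 5 of the 12 outside let-7 and in 4 of the 6 families with exactly 2 letters.

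The size and even the sign of the members' shift depended on what the plates were scaled to. Without the 0.7-cycle offset, the ratios ran from 2.87-fold (miR-23a) to 6.20-fold (miR-27b), all 5 at least 2-fold higher, as were 56.0% of the 100 assays. With a factor of 1.8 per cycle in place of 2 they ran from 3.69-fold to 7.09-fold, 5 of 5 against 67.0%. Scaled to the mean of the UniSp3 wells they were 5.30-fold to 11.5-fold, again 5 of 5, against 81.0%. Without the even-row calibrator well they were 3.71-fold to 8.02-fold, 5 of 5 against 64.0%, a scale chosen after the values were seen. Relative to the median of all 100 miRNAs, which removes a log2 shift of 2.08 common to the plates, the members lay between 1.11-fold and 2.39-fold, and miR-27b was the 1 member at least 2-fold higher, against 16.0%. On that scale all 5 stayed above 1, as they did relative to U6, a small nuclear RNA (1.08-fold to 2.32-fold, 1 of 5 at least 2-fold higher against 15.0%).

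Relative to the median of the odd rows, miR-23a lay just below 1 at 0.93-fold and miR-27b at 2.01-fold, 1 of 5 against 18.0% when each assay was set against its own kind of row. Narrowed further to odd or even columns, a scale chosen after the values were seen, miR-23a again lay below 1 (log2 ratio -0.11) and miR-27b alone was at least 2-fold higher (1.001), against 17.0%. Relative to the mean of 4 reference miRNAs (miR-423-3p, miR-16, miR-191 and miR-103), miR-23a, miR-23b and miR-24 lay below 1 and miR-27a and miR-27b above it, from 0.785-fold to 1.69-fold, with 0 of 5 at least 2-fold higher against 11.0%. Only miR-16 (row E) lies in an odd row, as the members do. miR-103 (row F), miR-191 (row H) and miR-423-3p (row D) lie in even rows, where ratios were lower. The part of plate row in the reference scales was not tested. The highest of these references by far was miR-423-3p, at 49.5-fold, against 4.22-fold for miR-16, 4.06-fold for miR-191 and 1.47-fold for miR-103. With the other 3 references all members lay above 1, from 1.59-fold to 3.43-fold, and the miR-27 forms were the 2 members at least 2-fold higher, against 32.0%. miR-27b was the highest of the 5 on each of these scales.

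**Figure D3:**
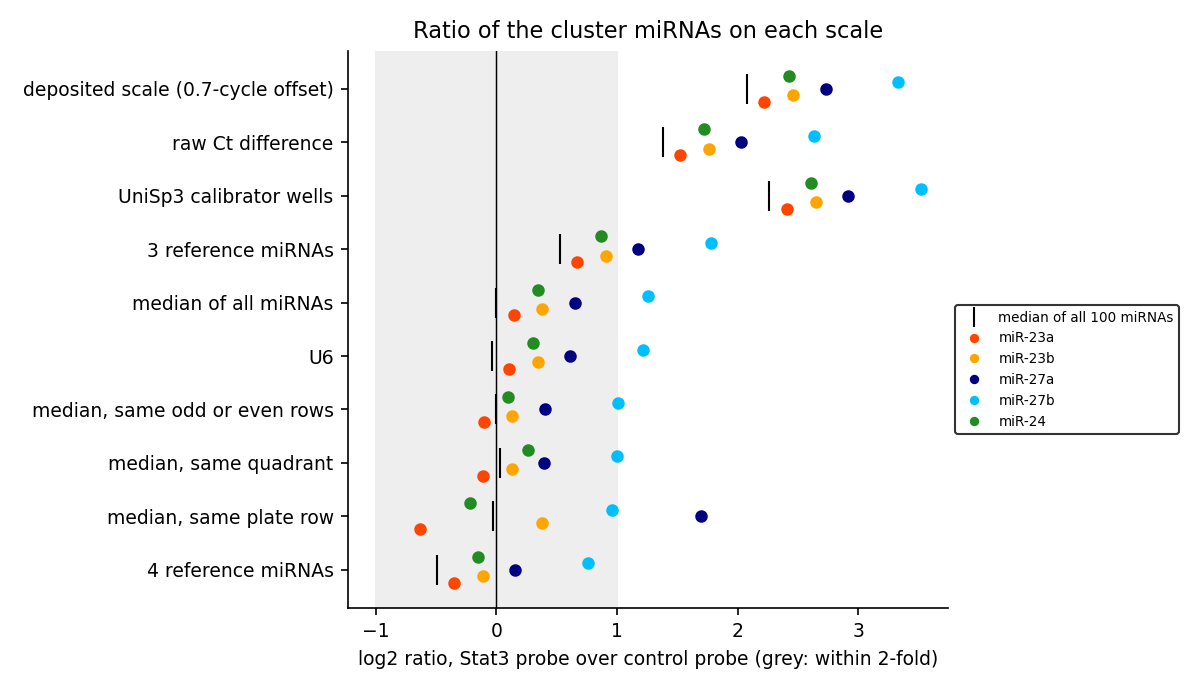
Log2 ratio of Stat3 probe over control probe (horizontal axis) for the 5 cluster miRNAs on each of 10 scales (rows), with a black bar at the median of all 100 miRNAs on that scale and grey shading for values within 2-fold. The members lie at 2.22 to 3.33 on the deposited scale and at -0.35 to 0.76 relative to 4 reference miRNAs, and miR-27b lies farthest to the right on all scales but that of single plate rows.

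Position on the plate moved with the ratio. The median log2 ratio was 2.33 over the 74 miRNA assays of odd rows and 0.85 over the 26 of even rows, and the part of position in the members' values was not tested beyond the scales given here. Single rows differed as well. In row M the 11 other miRNA assays had a median of 2.05-fold and a highest value of 5.80-fold, and miR-27a at 6.63-fold lay above each of them. In row G the 10 assays that are not members had a median of 6.11-fold, with miR-27b above 8 of them and miR-23a below 6. miR-23b lay above the 4.22-fold median of the 9 others in row E, and miR-24 below the 6.22-fold median of the 10 others in row O. Against the median of all other assays of its own row, miR-27a thus had the highest log2 ratio of the 5, 1.69, ahead of miR-27b at 0.96 and miR-23b at 0.38, with miR-24 at -0.21 and miR-23a at -0.63. On this scale, chosen after the values were seen, 1 of 5 was at least 2-fold higher, against 21.0% of the 100.

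**Figure D4:**
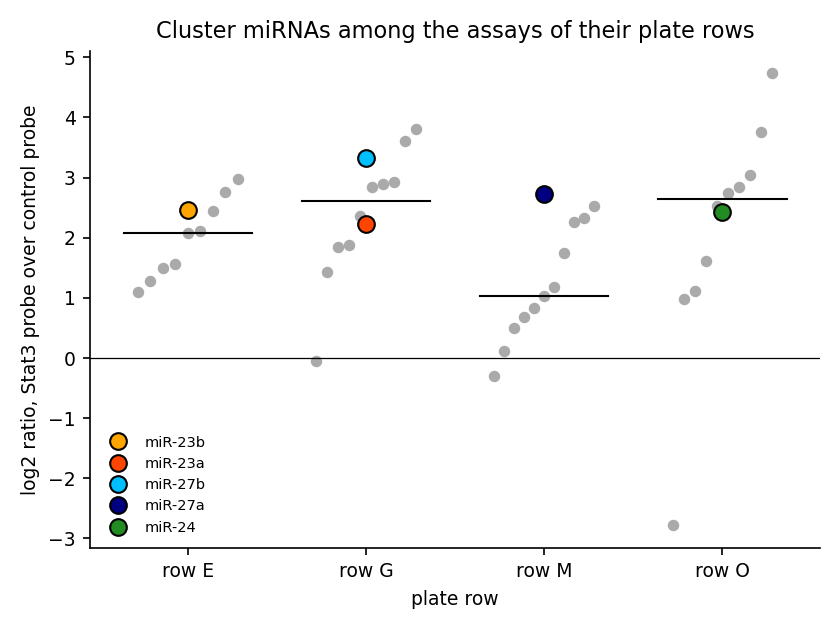
Log2 ratio of Stat3 probe over control probe (vertical axis) for the miRNA assays of plate rows E, G, M and O, with grey points for other assays, coloured points for the cluster miRNAs and a bar at the median of the grey points. miR-27a lies above each other assay of row M, whereas miR-24 and miR-23a lie below the bars of rows O and G.

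The 5 ratios lay closer together than those of some other miRNA families on these plates. The SD of the log2 ratio was 0.43 over the 5 members, 1.10 over 8 let-7 miRNAs, 0.71 over 3 miR-30 miRNAs, 0.88 over 3 miR-29 miRNAs and 2.05 over 6 miRNAs of the miR-15/16 family. Over all 100 assays it was 1.55. The medians of the members, let-7 and miR-30 were alike, at 2.46, 2.55 and 2.53 in log2 ratio. In let-7, let-7f at 0.964-fold and let-7i at 1.83-fold lay apart from the rest, and no member of the miR-232724 clusters lay that low. The let-7i well carried an instrument warning on both plates, and the let-7 SD includes it. The let-7 miRNAs other than let-7f and let-7i ran from 5.03-fold (let-7g) to 8.46-fold (let-7e), a narrower span than that of the members. The families differ in size, in signal and in plate rows, and the miR-29 control Ct values, from 33.44 to 34.17, were near the limit of 35. The difference in spread was not tested.

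**Figure D5:**
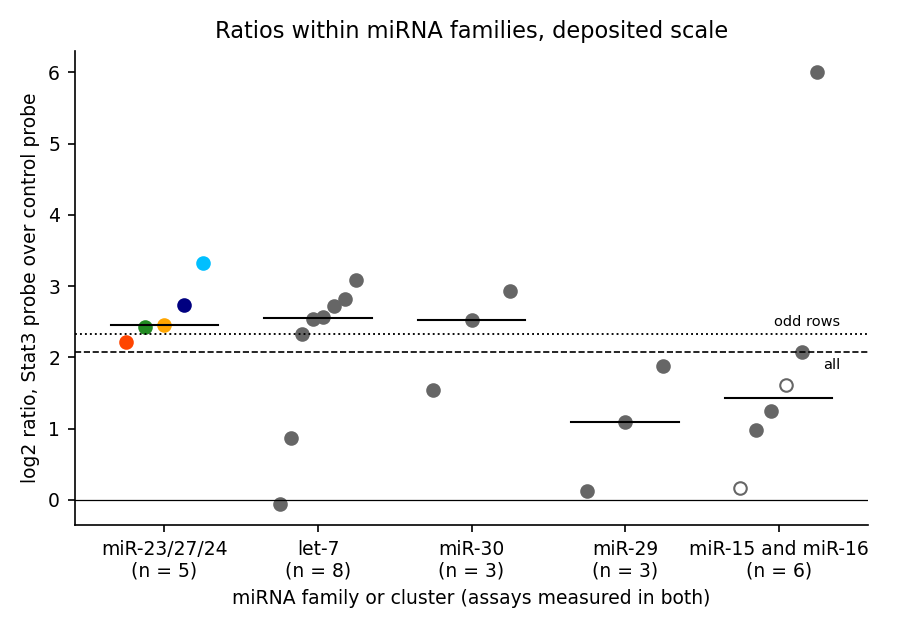
Log2 ratio of Stat3 probe over control probe (vertical axis) for assays measured in both pull-downs in 5 miRNA families, 1 point per assay, filled for odd plate rows and open for even ones, with a bar at each family's median, a dashed line at the median of all 100 miRNAs and a dotted line at that of the 74 in odd rows. The coloured miR-23/27/24 points, from the lowest miR-23a, miR-24, miR-23b, miR-27a and miR-27b, span 1.11, and those of miR-15 and miR-16 span 5.83.

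The assays most like each member were found by the distance between their pairs of Ct values, over both plates and the 100 assays. The nearest to miR-23a was miR-23b, at 0.17 cycles, and the next were miR-125b-5p and let-7b for either. miR-27b had miR-27a as its nearest, at 0.43 cycles, followed by let-7e and miR-210. miR-27a lay closer to miR-210, at 0.25 cycles, and to miR-378, at 0.34 cycles, than to miR-27b. Nearest to miR-24 were miR-16, at 0.25 cycles, miR-221, at 0.28 cycles, and miR-21, at 0.61 cycles. The likeness rests on 2 Ct values per assay.

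The seed of miR-128 overlaps that of miR-27 when shifted by 1 base, and its values could not be compared with those of miR-27. miR-128-3p shares 8 bases with miR-27a-3p, bases 1 to 8 of its own strand and bases 2 to 9 of miR-27a-3p, in capitals here.
miR-128-3p: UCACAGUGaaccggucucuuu
miR-27a-3p: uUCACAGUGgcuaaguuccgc
In the authors' deposited table miR-128 stands at 1.625, the value that 0.7 cycles give with no Ct difference and the mark of an assay at or above 35 in both pull-downs. No well and thus no Ct could be given to it, and a level too low for that limit was not tested.

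Of 6 myeloid markers, 5 were measured in both pull-downs, at control Ct values from 27.19 (miR-21) to 32.09 (miR-223), the sixth, miR-142-5p, being at or above 35 in both. Of 15 markers of erythroid, endothelial, muscle, epithelial, neural and liver cells, 4 were measured in both, 4 only with the control probe and 7, among them all 4 of muscle, in neither. Thus 8 of the 15 lay below 35 with the control probe. These counts take mouse-named assays only. With the control probe, rat-named assays read 33.94 for miR-200b, counted in neither, 34.33 for miR-200c and 32.82 for miR-223. The 4 measured in both had control Ct values from 30.47 to 33.71, a range that overlaps the myeloid one, and miR-451, an erythroid marker, read earlier than miR-223. Over the plates, 209 control and 225 Stat3 wells gave a Ct, and 121 and 132 lay below 35. The small nuclear RNAs did not share 1 ratio, at 0.472-fold for RNU5G, 0.699-fold for RNU1A1 and 4.33-fold for U6, all in even rows.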

How the data were processed

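Plate values are raw Ct (cycles) per well, exported with SDS 2.3 at a manual threshold of 0.15, per the file headers. Other steps are unstated in the sources. The deposited table holds 1 ratio per named assay. Its header calls it a log fold change, but the values are linear: their log2 is 0.7 plus the control Ct minus that of the Stat3 plate, with any Ct above 35 set to 35. The authors' deposited ratios were used to tie names to wells: of 146 rows with another value than the offset alone, 142 matched 1 well. miR-451 and the UniSp6 spike-in shared a pair of wells, and UniSp6 was taken as that of lowest Ct.

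Ratios were recomputed from the plates with pandas 2.3.3. The members and lists were chosen with earlier results of these data known. The design had assumed relative levels; the log2 ratio is the same quantity. Named were the members, the reference and control assays, the 3 assays nearest each member, miR-128 and other lettered families. The deposited table holds 0 rows for passenger strands of these hairpins or for miR-3074, so these could not be analysed. The matching was tested on simulated plates. Alternatives were other scales, a ceiling of 40 cycles and a factor of 1.8 per cycle.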

Additional observations from a re-analysis of the deposited data

Results flagged for a closer look

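Some unused wells also gave a Ct, and more of them did so in the Stat3 pull-down. The comparison leaves out 238 wells that on both plates were undetermined or at 35 cycles and later, and a late Ct was recorded in 89 of these on the Stat3 plate against 67 on the control plate.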

How the results depend on the processing

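No paired analysis was possible because each probe has 1 pull-down. The calibrator SD of 0.97 cycles over 3 wells was taken as the spread against which a change was judged. It mixes odd and even rows. Over the 2 odd-row wells, a choice made after seeing the data, it was 0.55, and the values without the offset moved by more than that, by 0.7. The deposited values as given, a ceiling of 40 cycles, no offset, the calibrator scale with or without its even-row well, a factor of 1.8 per cycle and leaving out 1 member at a time kept every direction and moved each value by less than 0.97. Values of other scales follow in the order miR-23a, miR-23b, miR-27a, miR-27b, miR-24, members' median and number of members at least 2-fold higher, in log2. Relative to all miRNAs they were 0.14, 0.38, 0.65, 1.25, 0.35, 0.38 and 1. Relative to U6 they were 0.11, 0.34, 0.61, 1.22, 0.31, 0.34 and 1. Relative to odd or even rows they were -0.10, 0.13, 0.40, 1.01, 0.10, 0.13 and 1. Relative to 3 references they were 0.67, 0.91, 1.18, 1.78, 0.87, 0.91 and 2. With miR-423-3p added they were -0.35, -0.11, 0.16, 0.76, -0.15, -0.11 and 0. Scales added after seeing the data were the other assays of the same quadrant of the plate, with -0.11, 0.13, 0.40, 1.001, 0.26, 0.26 and 1, and the other assays of the same row, with -0.63, 0.38, 1.69, 0.96, -0.21, 0.38 and 1. By construction, scales common to all 5 wells left the b minus a differences unchanged. Only the row scale turned that of miR-27, to -0.73, and it widened that of miR-23 from 0.24 to 1.01. The cause of the differences between scales was not tested. Precision is limited by 1 pull-down per probe and 3 calibrator wells.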
